A study of Homo sapiens with 14 samples.

Results

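The comparison described here is the loss of FOXO1 and FOXO3 while E2F1 was active, measured on 8 of the 14 arrays of the series and chosen by the sample titles. All cells were U2OS ER-E2F1, a human osteosarcoma line that stably carries E2F1 fused to the hormone-binding part of the estrogen receptor, so that 4-hydroxytamoxifen (OHT) switches the fused E2F1 on. The cells were infected with lentivirus, placed in serum-free medium for 24 h and then given 20 nM OHT for 6 h in serum-free medium. The knockdown group held 4 arrays, of which 2 carried the hairpin shFOXO33 and 2 the hairpin shFOXO707, each of them aimed at both FOXO1 and FOXO3. The control group held 4 arrays of cells with a scrambled hairpin and the same OHT treatment. Uninfected cells and cells without ER-E2F1 were not analysed here, and both hairpins were read against the same 4 scrambled arrays, so a level particular to the scrambled virus cannot be told apart from a knockdown effect. The labels do not say that replicates came from separate cultures, so every p-value measures only the spread between these arrays, which may be technical.

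FOXO1 and FOXO3 are forkhead transcription factors that growth factor signalling, through the kinase AKT, holds out of the nucleus. In cells deprived of serum they enter the nucleus and are known to raise genes of cell cycle arrest, cell death, stress resistance and autophagy. E2F1 drives the genes of S phase entry, can also trigger apoptosis, and is known to raise transcription of the FOXO genes. The question put to these arrays is which transcripts change in cells with active E2F1 when both FOXO factors are reduced.

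Each array gave 1 signal per probe set, a group of short probes for 1 transcript, and changes are given on the scale log2(signal + 16), which understates the change of dim genes. A gene was called when limma's Benjamini-Hochberg adjusted p was under 0.05 with each hairpin and both changes had the same sign. Arrays of the same group correlated at r = 0.993 to 0.994 over the 7720 genes tested, arrays of the different hairpins at 0.956 to 0.958, and hairpin arrays against scrambled arrays at 0.964 to 0.973, as a description. The ACTB control probe sets gave a 3' to 5' signal ratio, a sign of RNA and labelling quality, of 1.60 to 1.74 on the scrambled arrays with OHT, 1.60 to 1.63 with shFOXO33 and 1.95 to 2.04 with shFOXO707. Among osteoblast markers, SPARC (8321 to 9085) and COL1A1 (7198 to 7606) were bright on the scrambled arrays with OHT, while RUNX2 (16.5 to 26.2) and IBSP (19.8 to 28.5) were dim. The 9 blood cell markers on the array summed to signals of 294.5 to 334.1 on the scrambled arrays, 323.3 to 368.1 with shFOXO33 and 309.9 to 342.8 with shFOXO707.

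Both targeted transcripts were lower on every knockdown array. FOXO3 read 1785, 1736, 1808 and 1844 on the 4 scrambled arrays, 290 and 325 with shFOXO33, and 853 and 766 with shFOXO707. The groups did not overlap, and shFOXO33 left 17.1% of the scrambled mean signal while shFOXO707 left 45.1%. The log2 change was -2.49 ± 0.08 (SE) with shFOXO33 and -1.13 ± 0.08 with shFOXO707, with limma adjusted p of 4.41e-12 and 4.72e-08. The hairpins differed from each other by 1.35 (adjusted p = 1.98e-08 by limma), so FOXO3 was reduced further by shFOXO33. FOXO1 read 533, 515, 502 and 456 on the scrambled arrays, 140 and 185 with shFOXO33, and 218 and 254 with shFOXO707. Its log2 change was -1.54 ± 0.13 and -1.04 ± 0.13, which left 32.4% and 47.1% of the scrambled mean signal (larger limma adjusted p 1.09e-05). The second FOXO1 probe set fell by 1.69 with the hairpins pooled, and 3 probe sets shared by FOXO3 and FOXO3B changed by -1.75, -1.78 and -1.29. FOXO4, a related factor, did not pass the filter on low signals and had a pooled change of -0.26 (limma adjusted p = 0.579). The 2 probe sets of E2F1 gave pooled changes of -0.09 (limma adjusted p = 0.666) and -0.21 (0.398), neither called. By hairpin, the former changed by -0.21 with shFOXO33 and 0.03 with shFOXO707. The latter was lower with shFOXO33 (-0.43, limma adjusted p = 0.017) but not with shFOXO707 (0.004), and the hairpins differed by 0.44 (0.0387). In scrambled cells without OHT, FOXO3 had read 424, 510, 448 and 415 and FOXO1 92.4, 107, 101 and 112. Knockdown cells with OHT therefore held FOXO1 above the scrambled level without OHT, and FOXO3 above it with shFOXO707 and below it with shFOXO33, as a comparison of levels with no test.

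With both hairpins, 880 of 7720 genes (11.4%) were called higher and 509 (6.59%) were called lower. Most changes were small: the median of the smaller of the 2 hairpin changes was 0.35 among the genes called higher and -0.33 among those called lower. At least a 1.5-fold change with each hairpin was reached by 129 genes called higher and 78 called lower, and at least a 2-fold change by 25 and 15. The 4 knockdown arrays all lay above the 4 scrambled arrays for 854 of the 880, where 1289 of all genes (16.7%) did so, and all lay below for 493 of the 509, where 795 of all genes (10.3%) did so. The hairpins themselves differed in size for 232 of the 880 and 229 of the 509. Of all genes, 22.1% were higher and 21.4% lower with shFOXO707 than with shFOXO33. With the arrays of both hairpins pooled into 1 group, limma called 1138 genes higher (14.7%) and 618 lower (8.01%), with 2802 genes at an unadjusted p under 0.05. That fit counts arrays of 1 hairpin as separate replicates. A further pooled fit took each of the 6 groups of virus and treatment as a random block (duplicateCorrelation, consensus correlation 0.694). It called 34 higher (0.440%) and 23 lower (0.298%), and all 57 were among the genes called with both hairpins. Those 57 include 12 of the 12 genes with the greatest rise and 9 of the 12 with the greatest fall, the exceptions being AHNAK, CEMIP and FOXO1 (adjusted p = 0.0505, 0.392 and 0.0549).

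**Figure D1:**
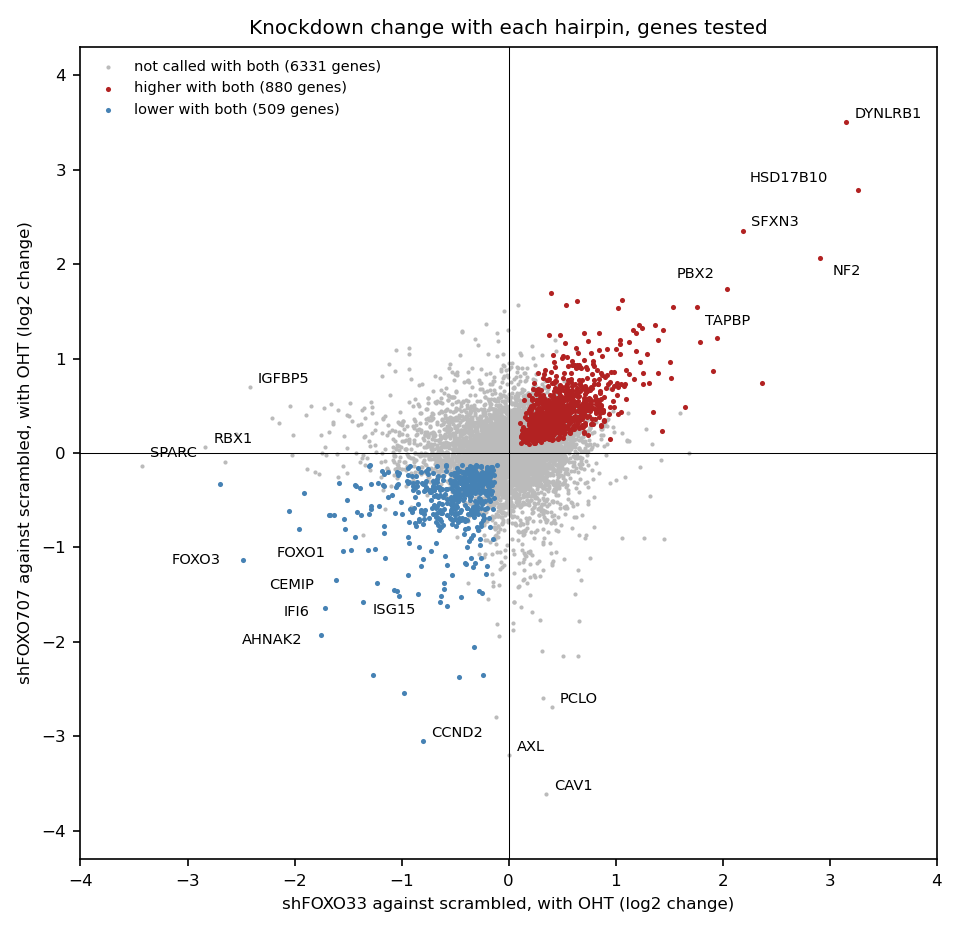
Log2 change of each of the 7720 genes tested with shFOXO33 (horizontal axis) and with shFOXO707 (vertical axis), each against the 4 scrambled arrays with OHT. Red points are the 880 genes called higher with both hairpins, blue points the 509 called lower and grey points the rest; DYNLRB1 and HSD17B10 stand at the upper right, AHNAK2, IFI6 and FOXO3 at the lower left, and CAV1, AXL and SPARC lie far from the diagonal.

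The 12 genes with the greatest rise were DYNLRB1, HSD17B10, SFXN3, NF2, PBX2, TAPBP, CREB3L2, MED16, GTPBP6, RPIA, WDR77 and PPP1CC, ranked by the smaller of their 2 changes, which ran from 3.15 for DYNLRB1 to 1.22 for PPP1CC. DYNLRB1, a light chain of the dynein motor, read 133, 154, 167 and 155 on the scrambled arrays, 1486 and 1465 with shFOXO33, and 1950 and 1830 with shFOXO707. It rose by 3.15 ± 0.08 and 3.51 ± 0.08 on the log2 scale, or 9.70-fold and 12.4-fold in signal (larger limma adjusted p 3.09e-13), and its second probe set had a pooled change of 3.07. HSD17B10, a mitochondrial dehydrogenase of isoleucine breakdown, read 168, 192, 146 and 183 in scrambled cells, 1757 and 1819 with shFOXO33, and 1342 and 1212 with shFOXO707. Its change was 3.27 ± 0.10 and 2.79 ± 0.10 (larger limma adjusted p 6.61e-12). SFXN3, a serine carrier of the mitochondrial membrane, read 228, 196, 170 and 94.2 in scrambled cells, 820 and 791 with shFOXO33, and 918 and 900 with shFOXO707, a change of 2.19 ± 0.21 and 2.36 ± 0.21. The scrambled arrays varied most for this gene, and still lay far below the knockdown arrays.

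The remaining genes of the 12 had varied roles. TAPBP encodes tapasin, which loads peptides onto MHC class I, and read 246, 325, 236 and 386 in scrambled cells, 1077 and 986 with shFOXO33, and 843 and 936 with shFOXO707. Its change was 1.76 ± 0.15 and 1.55 ± 0.15 (larger limma adjusted p 1.02e-06), while a dimmer probe set below the filter gave a pooled change of 0.05. It was the only one called with both hairpins of 14 tested genes of MHC class I presentation (7.14%, beside 11.4% of all genes called higher). CREB3L2, a transcription factor held in the endoplasmic reticulum, rose by 1.54 and 1.55, and MED16, a Mediator subunit, by 1.37 and 1.36. PBX2, a homeodomain factor, rose by 2.04 and 1.74, and its probe set below the filter changed by -0.57 with the hairpins pooled (limma adjusted p = 0.183). WDR77, a partner of the arginine methyltransferase PRMT5, rose by 1.95 and 1.22, and its second probe set gave a pooled change of 1.31. NF2, the tumour suppressor merlin, rose by 2.91 and 2.06 on its brightest probe set, but none of its other 6 probe sets was called with both hairpins. With shFOXO33 those 6 changed by 0.28 to 1.24, and with shFOXO707 by -0.32 to 0.49, with 5 of the 6 below 0. RPIA, an isomerase of the pentose phosphate pathway, rose by 1.25 and 1.33, and PPP1CC, a catalytic subunit of protein phosphatase 1, by 1.22 and 1.36.

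The 12 genes with the greatest fall included both targets and AHNAK2, IFI6, ISG15, CEMIP, PREPL, SCD, ZBTB10, SYNC, AHNAK and TMEM30A. AHNAK2, a giant scaffold protein, read 519, 471, 470 and 436 in scrambled cells, 121 and 139 with shFOXO33, and 102 and 123 with shFOXO707. Its change was -1.75 ± 0.11 and -1.93 ± 0.11 (larger limma adjusted p 3.68e-09). SCD, the desaturase that makes monounsaturated fatty acids, read 3528, 3410, 3491 and 3303 in scrambled cells, 1404 and 1496 with shFOXO33, and 1309 and 1314 with shFOXO707. Its change was -1.23 ± 0.07 and -1.38 ± 0.07, and the hairpins differed by -0.14 ± 0.08, which was not called (limma adjusted p = 0.174). ZBTB10, a zinc finger repressor, read 716, 714, 550 and 600 in scrambled cells, 258 and 301 with shFOXO33, and 282 and 292 with shFOXO707, a change of -1.16 ± 0.10 and -1.11 ± 0.10. TMEM30A, a subunit of the flippases of the plasma membrane, fell by 1.03 and 1.51, and PREPL, a serine hydrolase, by 1.26 and 2.35. CEMIP, which acts in hyaluronan breakdown, read 586, 597, 532 and 496 in scrambled cells, 170 and 168 with shFOXO33, and 175 and 244 with shFOXO707, a change of -1.62 ± 0.25 and -1.35 ± 0.25. AHNAK fell by 1.05 and 1.46 on its brightest probe set, and its other probe set had a pooled change of -0.05 (limma adjusted p = 0.866).

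**Figure D2:**
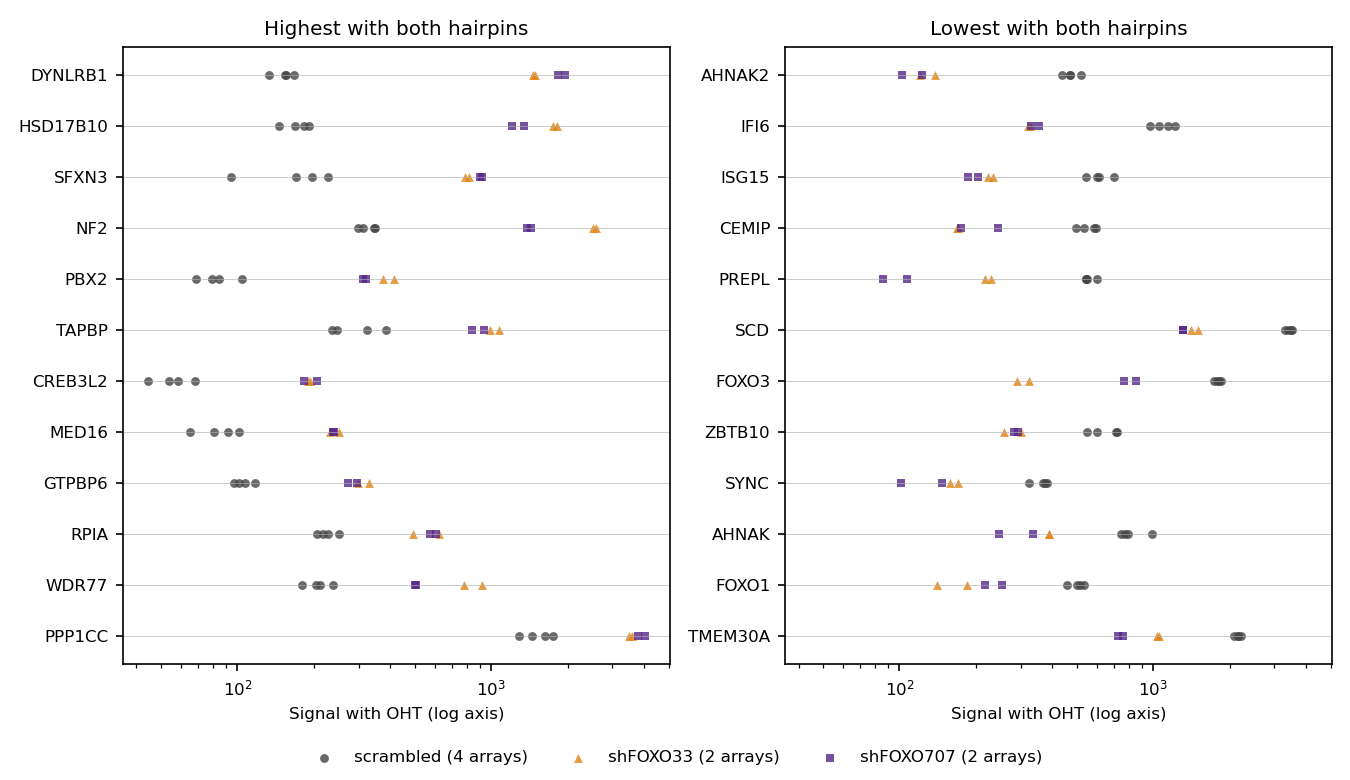
Signal on each of the 8 arrays with OHT, on a log axis, for the 12 genes with the greatest rise and the 12 with the greatest fall with both hairpins. Each point is 1 array; the 24 genes were chosen among those whose knockdown and scrambled arrays do not overlap, and the plot shows the size of the gap, for example DYNLRB1 at 1465 to 1950 against 133 to 167.

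IFI6 and ISG15, genes that interferon induces, were among the deepest falls. IFI6, a mitochondrial protein with antiviral and survival roles, read 1146, 1054, 972 and 1218 in scrambled cells, 320 and 326 with shFOXO33, and 353 and 329 with shFOXO707. Its change was -1.71 ± 0.08 and -1.64 ± 0.08 (larger limma adjusted p 8.56e-10). ISG15, a ubiquitin-like modifier, read 613, 545, 600 and 702 in scrambled cells, 233 and 224 with shFOXO33, and 204 and 186 with shFOXO707, a change of -1.36 ± 0.12 and -1.57 ± 0.12. IFI44 read 104, 77.9, 115 and 153 in scrambled cells, 27.9 and 27.1 with shFOXO33, and 50.9 and 61.8 with shFOXO707, a change of -1.53 ± 0.24 and -0.80 ± 0.24. Its call was lost without shFOXO707 replicate 1 (limma adjusted p = 0.125), and its dimmer probe set had a pooled change of 0.12. TRIM22 was also called lower (-0.24 and -0.71), while EIF2AK2, the kinase PKR (0.39 and 0.45), and LGALS3BP (0.73 and 0.66) were called higher. Of 16 tested interferon-stimulated genes, 4 (25%) were called lower and 2 (12.5%) higher, beside 6.59% and 11.4% of all genes, and the median pooled change was -0.19 beside 0.04 over all genes tested. The other 10, such as IRF1 (0.08 and 0.09) and USP18 (-0.33 and -0.27), were not called. The bases before the transcription start of the 3 most reduced genes of this group are shown because each holds, on at least 1 strand, the core of the interferon-stimulated response element, which is GAAA, any 2 bases and GAAA again. The capitals mark those letters, and each sequence is 250 bases of RefSeq GRCh38.p14, read along the gene's strand.
ISG15 (chr1:1013247-1013496, + strand): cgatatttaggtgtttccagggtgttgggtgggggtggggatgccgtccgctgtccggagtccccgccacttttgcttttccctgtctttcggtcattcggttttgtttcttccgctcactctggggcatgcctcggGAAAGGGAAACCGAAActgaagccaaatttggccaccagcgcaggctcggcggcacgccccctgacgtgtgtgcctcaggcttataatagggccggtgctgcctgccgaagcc
IFI6 (chr1:27672193-27672442, - strand): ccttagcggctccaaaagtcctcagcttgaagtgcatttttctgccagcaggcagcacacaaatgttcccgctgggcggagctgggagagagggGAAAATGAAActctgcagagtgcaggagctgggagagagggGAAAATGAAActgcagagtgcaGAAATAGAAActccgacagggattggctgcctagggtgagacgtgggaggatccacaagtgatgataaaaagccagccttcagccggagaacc
IFI44 (chr1:78649539-78649788, + strand): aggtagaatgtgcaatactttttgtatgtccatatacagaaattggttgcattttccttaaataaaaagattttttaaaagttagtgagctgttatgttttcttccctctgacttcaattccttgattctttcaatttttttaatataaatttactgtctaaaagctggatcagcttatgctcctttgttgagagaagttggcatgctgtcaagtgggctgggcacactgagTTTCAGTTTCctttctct
The motif was looked for after these values were seen, on both strands, and matches that overlap were joined. It was held by 4.09% of the 660 windows of genes called lower, 2.88% of the 1147 windows of genes called higher, 2.39% of the 9775 windows of genes tested and 3.02% of all 35116 windows.

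Of 22 tested FOXO target genes, 6 (27.3%) were called lower, beside 6.59% of all genes, and none was called higher, with a median pooled change of -0.16 beside 0.04 over all genes. The 6 were PIK3IP1, NBR1, KLF9, KLHL24, SESN1 and TRIB1. The shares depend on which genes the list holds, and BCL2L11, described below as a known FOXO3 target, was counted with the apoptosis genes instead. PIK3IP1, an inhibitor of phosphatidylinositol 3-kinase, read 278, 280, 214 and 253 in scrambled cells, 60.3 and 78.2 with shFOXO33, and 149 and 164 with shFOXO707, a change of -1.68 ± 0.14 and -0.65 ± 0.14 (larger limma adjusted p 0.0017). Like FOXO3, it was lower with shFOXO33 than with shFOXO707, and the hairpins differed by 1.02 (adjusted p = 0.000113 by limma). NBR1, a receptor of selective autophagy, read 436, 490, 465 and 485 in scrambled cells, 245 and 235 with shFOXO33, and 303 and 309 with shFOXO707, a change of -0.92 ± 0.07 and -0.59 ± 0.07. KLF9, a zinc finger factor, changed by -0.65 and -0.81, although a dimmer probe set had a pooled change of 0.16. KLHL24 changed by -0.50 and -0.70, and SESN1, a stress-induced inhibitor of mTORC1, by -0.34 and -0.37. TRIB1, a pseudokinase, changed by only -0.15 and -0.18, and was not called with the hairpins pooled (limma adjusted p = 0.0538). Classical FOXO targets that were not called included CDKN1B, the CDK inhibitor p27 (-0.03 and -0.29), GADD45A (-0.10 and -0.66), CCNG2 (-0.23 and -0.76), BCL6 (0.07 and -0.25), and catalase, CAT (-0.49 and 0.64).

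Among genes of cell death, BCL2L11, the death-promoting BCL2 relative BIM and a known FOXO3 target, was lower with both hairpins. It read 524, 520, 526 and 584 in scrambled cells, 427 and 399 with shFOXO33, and 404 and 410 with shFOXO707, a change of -0.37 ± 0.10 and -0.39 ± 0.10 (larger limma adjusted p 0.00553). The groups did not overlap, though the call was lost without shFOXO33 replicate 2 (adjusted p = 0.063 by limma). Of 16 tested apoptosis genes that E2F1 is known to raise, BCL2L11 and PPP1R13B (12.5%) were called lower and CASP8 (6.25%) was called higher, beside 6.59% and 11.4% of all genes, with a median pooled change of -0.01. CASP8, the initiator caspase of death receptors, read 59.4, 75.9, 104 and 106 in scrambled cells, 155 and 168 with shFOXO33, and 160 and 179 with shFOXO707, a change of 0.82 ± 0.16 and 0.88 ± 0.16. PPP1R13B, the p53 cofactor ASPP1, changed by -0.28 and -0.35, and its call was lost without shFOXO33 replicate 1 or 2, shFOXO707 replicate 2 or scrambled replicate 1 (adjusted p = 0.12, 0.1, 0.0687 and 0.0582 by limma). Without shFOXO33 replicate 2 none of the 16 was called lower, and without scrambled replicate 1, shFOXO33 replicate 1 or shFOXO707 replicate 2 the count lower was 1; it was 2 higher without the last. APAF1 (-1.13 and -0.17), PMAIP1 (0.12 and -0.55) and HRK (-0.16 and 0.18) were not called. On the survival side, 3 of 9 tested genes (33.3%, beside 6.59% of all genes) were called lower and none higher. The list was built around the BCL2 and IAP families and also holds BAG3, which belongs to neither. BCL2 read 1031, 896, 834 and 874 in scrambled cells, 576 and 621 with shFOXO33, and 724 and 659 with shFOXO707, a change of -0.59 ± 0.10 and -0.38 ± 0.10. Its call was lost without shFOXO707 replicate 2 (limma adjusted p = 0.0689), and 1 of its dimmer probe sets had a pooled change of 0.10. BAG3, a chaperone partner, changed by -0.72 and -0.50, and MCL1 by -1.03 and -0.21. The MCL1 call was lost with probe sets averaged, without probe sets that may cross-hybridise and with no trend in the variance prior (limma adjusted p = 0.2, 0.143 and 0.0565), and without scrambled replicate 3 or shFOXO707 replicate 1 or 2 (0.0562, 0.173 and 0.0513). The survival genes called lower numbered 1 without shFOXO707 replicate 2, and 2 without replicate 1 of that hairpin or scrambled replicate 3. The region before the BCL2L11 start is shown because it is 1 of the 2 among 45 lowered and named genes with a RefSeq window that hold a forkhead core, GTAAACA or ATAAACA, on either strand, the other being FOXO3 itself. The capitals mark the core in the 250 bases of GRCh38.p14.
BCL2L11 (chr2:111120664-111120913, + strand): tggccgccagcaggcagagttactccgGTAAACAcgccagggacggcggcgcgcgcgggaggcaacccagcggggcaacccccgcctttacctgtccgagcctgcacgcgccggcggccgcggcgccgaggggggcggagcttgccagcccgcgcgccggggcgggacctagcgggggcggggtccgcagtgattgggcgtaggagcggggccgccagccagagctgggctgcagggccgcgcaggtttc
Forkhead cores were held by 3.64% of the 660 windows of genes called lower with both hairpins, 3.49% of the 1147 windows of genes called higher, 4.17% of the 9775 windows of genes tested and 6.56% of all 35116 windows. Windows were found for 6440 of the 7720 genes, some with several. The E2F elements TTTGGCGC, TTTCCCGC, TTTGGCGG and TTTCGCGC, searched on both strands, were held by 3.33%, 5.84%, 4.54% and 2.83% of the same windows in that order, and by 0 of the 5 windows of FOXO1 and FOXO3.

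Of 38 tested genes of mitosis, 18 (47.4%) were called higher and 2 (5.26%) lower, beside 11.4% and 6.59% of all genes. The median pooled change was 0.25 beside 0.04 over all genes, and the other 18 were not called. In scrambled cells OHT itself changed this list by a median of -0.59, beside -0.23 over all genes. A call higher is therefore relative to scrambled cells with OHT, not to cells without it. CENPE, a kinesin of the kinetochore, read 294, 275, 346 and 278 in scrambled cells, 476 and 558 with shFOXO33, and 505 and 460 with shFOXO707. Its change was 0.76 ± 0.09 and 0.67 ± 0.09 (larger limma adjusted p 3.25e-05). KIF20A, a kinesin of the midzone, read 355, 503, 392 and 395 in scrambled cells, 621 and 683 with shFOXO33, and 633 and 624 with shFOXO707, a change of 0.65 ± 0.12 and 0.60 ± 0.12. UBE2C, the ubiquitin-conjugating enzyme of the anaphase-promoting complex, changed by 0.56 ± 0.07 and 0.59 ± 0.07, and CCNF, cyclin F, by 0.58 and 0.65. The other CCNF probe set changed by only 0.13 and 0.11, neither called (limma adjusted p = 0.478 and 0.576). The mitotic kinase PLK1 (0.88 and 0.43), the spindle checkpoint kinases TTK (0.75 and 0.39) and BUB1B (0.66 and 0.46), and CCNB2, cyclin B2 (0.50 and 0.33), were also called higher. CDC25B (-1.16 and -0.22) and BUB3 (-0.11 and -0.13) were called lower. AURKA (0.44 and -0.07), CDK1 (0.25 and 0.03) and FOXM1 (0.59 and 0.06) were not called. The count higher was 14 to 19 when each array with OHT was left out in turn.

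**Figure D3:**
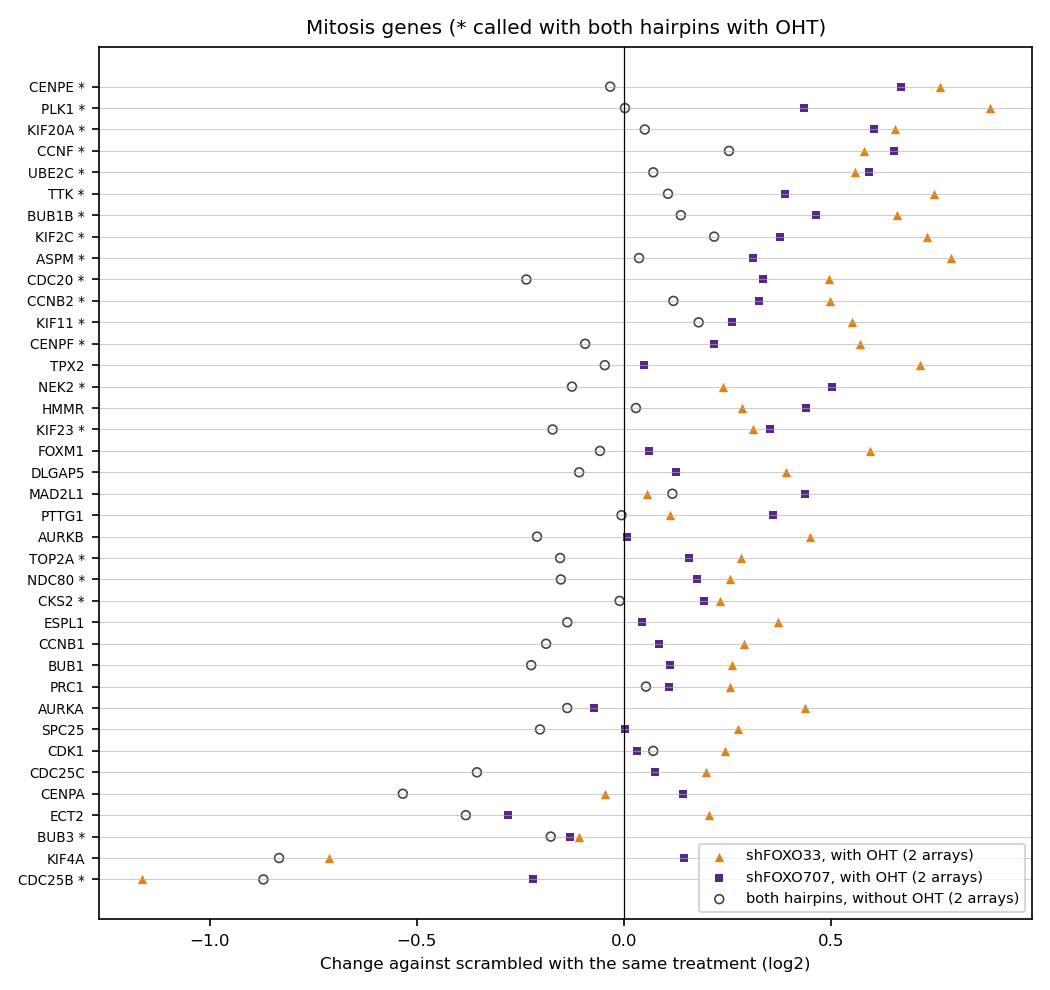
Log2 change (horizontal axis) of the 38 tested genes of mitosis, 1 per line, against scrambled cells of the same treatment, with triangles for shFOXO33 and squares for shFOXO707 with OHT and open circles for both hairpins pooled without OHT. With OHT the pooled median was 0.25 and 18 genes were called higher with both hairpins, and without OHT the pooled median was -0.08.

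Regulators of the G1 to S step moved less evenly. Of 16 tested G1 and S cyclins, CDKs and partners, 4 (25%) were called lower and 1 (6.25%) higher, beside 6.59% and 11.4% of all genes, with a median pooled change of -0.01. CCND1, cyclin D1, read 2500, 2405, 2395 and 2618 in scrambled cells, 904 and 979 with shFOXO33, and 1547 and 1581 with shFOXO707, a change of -1.38 ± 0.06 and -0.66 ± 0.06. CCND2, cyclin D2, read 3706, 3605, 3673 and 3546 in scrambled cells, 2101 and 2057 with shFOXO33, and only 426 and 425 with shFOXO707, a change of -0.80 ± 0.04 and -3.05 ± 0.04. Both D cyclins were lower with both hairpins, but CCND1 was lower with shFOXO33 (difference 0.72, limma adjusted p = 4.5e-07). On its brightest probe set CCND2 was lower with shFOXO707 (difference -2.25, limma adjusted p = 5e-14). Another CCND2 probe set changed by -1.28 with shFOXO33 and -1.01 with shFOXO707, a difference of 0.28 that was not called (limma adjusted p = 0.0566). A further CCND2 probe set changed by -0.66 and -1.485, a difference of -0.82 (limma adjusted p = 0.000161). CCND3, the remaining D cyclin, was called higher at 0.25 and 0.20. CDK4, their kinase partner, changed by -0.57 and -0.38, and CDK2 by -0.77 and -0.19. CCNE1 (-0.41 and 0.25), CCNA2 (0.05 and 0.09) and MYC (0.27 and 0.23) were not called. Of 8 tested CDK inhibitors and pocket proteins, CDKN1A, the inhibitor p21 (-0.25 and -0.33), and CDKN1C, the inhibitor p57, were called lower and CDKN3 (0.25 and 0.30), a phosphatase of CDKs, higher. CDKN1C read 2728, 2663, 2591 and 2501 in scrambled cells, 1954 and 1779 with shFOXO33, and 1714 and 2031 with shFOXO707, a change of -0.49 ± 0.08 with each. Of 37 tested genes of DNA replication, 4 (10.8%) were called higher and 1 (2.70%) lower, shares near or below those of all genes (11.4% and 6.59%). GMNN, the licensing inhibitor geminin, was the largest of the 4 at 0.40 and 0.34, and GINS2 was the 1 called lower at -0.37 and -0.22. The other 3 were POLA1 (0.27 and 0.26), whose call was lost without shFOXO33 replicate 2 or shFOXO707 replicate 2 (limma adjusted p = 0.0689 and 0.0765), PRIM1 (0.39 and 0.15), lost without shFOXO707 replicate 1 (0.386), and RPA3 (0.15 and 0.25). The count higher was 2 without shFOXO33 replicate 2 and 2 without shFOXO707 replicate 1. The MCM helicase genes MCM2 to MCM7 were not called, for example MCM2 at -0.10 and 0.08 and MCM7 at 0.25 and -0.23.

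Of 18 tested targets of p53, 7 (38.9%) were called lower, beside 6.59% of all genes, and none was called higher, with a median pooled change of -0.25, and 7 were called lower with each array with OHT left out in turn. TNFRSF10B, the death receptor DR5, read 516, 676, 552 and 639 in scrambled cells, 396 and 420 with shFOXO33, and 384 and 396 with shFOXO707, a change of -0.52 ± 0.09 and -0.58 ± 0.09 (larger limma adjusted p 0.000162). PHLDA3, an inhibitor of AKT, read 683, 668, 676 and 592 in scrambled cells, 423 and 372 with shFOXO33, and 432 and 450 with shFOXO707, a change of -0.70 ± 0.08 and -0.55 ± 0.08. ZMAT3 (-0.35 and -0.90) and DDB2 (-0.38 and -0.79), an RNA-binding protein and a factor of nucleotide excision repair, and the death receptor FAS (-0.26 and -0.58) were also lower, with CDKN1A and SESN1. MDM2 (0.14 and 0.05), BAX (-0.16 and 0.37) and TP53I3 (0.08 and -0.08) were not called.

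Immediate early genes are those that growth signals and stress induce within minutes. Of 25 tested immediate early and serum response genes, 12 (48%) were called lower, beside 6.59% of all genes, and none higher. The median pooled change was -0.33. The count lower became 8 without shFOXO33 replicate 1 and 6 without shFOXO707 replicate 1. EGR1, a zinc finger factor, read 5495, 5938, 5959 and 5083 in scrambled cells, 3372 and 3656 with shFOXO33, and 4108 and 4629 with shFOXO707. Its change was -0.67 ± 0.09 and -0.36 ± 0.09, and its call was lost without shFOXO707 replicate 1 (limma adjusted p = 0.0766). EGR4 read 448, 407, 387 and 364 in scrambled cells, 72.2 and 98.5 with shFOXO33, and 237 and 275 with shFOXO707, a change of -2.05 ± 0.14 and -0.62 ± 0.14, and its call was also lost without that array (0.054). NR4A1, an orphan nuclear receptor, changed by -0.53 and -0.75; its call was lost with probe sets averaged (limma adjusted p = 0.0661), and its dimmer probe set had a pooled change of 0.08. PHLDA1 changed by -0.46 and -0.38, a call lost with probe sets averaged (0.336). The phosphatase DUSP1 (-0.65 and -0.36) and the mRNA-decay factor ZFP36 (-0.30 and -0.57) were called lower. FOS (-0.29 and -0.52), JUN (0.13 and -0.47) and MYC were not called.

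Of 21 tested genes of insulin and PI3K signalling, 5 (23.8%) were called lower, beside 6.59% of all genes, and none higher, with a median pooled change of -0.06. PIP4K2C, a lipid kinase, read 714, 475, 535 and 562 in scrambled cells, 140 and 127 with shFOXO33, and 361 and 278 with shFOXO707, a change of -1.96 ± 0.13 and -0.80 ± 0.13. IGF1R, the receptor of insulin-like growth factors, changed by -0.41 and -1.17 on its brightest probe set, a call lost with probe sets averaged (limma adjusted p = 0.0925), and its probe set below the filter had a pooled change of 0.13. PIK3CB, a catalytic subunit of PI3K, changed by -0.37 and -0.38. Of 10 tested genes of AMPK and its activators, the subunits PRKAA1 (-0.36 and -0.50) and PRKAB2 (-0.32 and -0.34) were called lower and PRKAG1 (0.27 and 0.39) higher. All 3 calls depended on single arrays: without shFOXO33 replicate 1 the adjusted p of PRKAA1 was 0.157, without replicate 2 of that hairpin those of PRKAB2 and PRKAG1 were 0.0939 and 0.153, and without shFOXO707 replicates 1 and 2 in turn PRKAG1 had 0.131 and PRKAB2 0.0701. A probe set of PRKAA1 below the filter had a pooled change of 0.11, and the PRKAG1 call was also lost without scrambled replicate 3 and shFOXO33 replicate 1 in turn (limma adjusted p = 0.0585 and 0.0579). Of 28 tested genes of autophagy and the lysosome, 5 (17.9%) were called lower and 2 (7.14%) higher, beside 6.59% and 11.4% of all genes, with a median pooled change of -0.05. MAP1LC3B, which coats autophagosomes, read 2519, 2285, 2392 and 2296 in scrambled cells, 1596 and 1577 with shFOXO33, and 757 and 765 with shFOXO707, a change of -0.57 ± 0.05 and -1.62 ± 0.05. CTSB, a lysosomal protease, changed by -0.27 and -0.49, and ATG14, which directs the autophagy lipid kinase, was called higher at 0.60 and 0.47. The count lower was 3 without scrambled replicate 1 and 3 without shFOXO33 replicate 2, and the count higher was 1 without scrambled replicate 3 or 4, shFOXO33 replicate 1 or 2, or shFOXO707 replicate 1.

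The stress lists held transporters of amino acids. SLC7A11, which imports cystine for glutathione synthesis, read 208, 264, 249 and 269 in scrambled cells, 522 and 543 with shFOXO33, and 797 and 787 with shFOXO707, a change of 1.06 ± 0.10 and 1.62 ± 0.10. SLC7A5, which imports large neutral amino acids, read 2785, 2647, 2828 and 2755 in scrambled cells, 1176 and 1263 with shFOXO33, and 1449 and 1604 with shFOXO707, a change of -1.17 ± 0.06 and -0.85 ± 0.06. The first rose and the second fell with both hairpins. Over all genes 11.4% were called higher and 6.59% lower. Of 21 tested genes of oxidative stress defence, 3 (14.3%) were called higher and 2 (9.52%) lower, and TXNRD1, a thioredoxin reductase, changed by -1.44 and -0.34. Of 21 tested genes of the endoplasmic reticulum stress response, 2 (9.52%) were called higher, CREB3L2 and SLC7A11, and 3 (14.3%) lower. Of 21 genes of cholesterol and fatty acid synthesis, 4 (19.05%) were called higher and 2 (9.52%) lower, with SREBF1, the factor that drives lipid synthesis, at 0.45 and 0.54. The count higher was 2 without scrambled replicate 2 or shFOXO707 replicate 1 or 2, and the count lower was 3 without the second of these or without scrambled replicate 3. HMGCS1 changed by -1.17 and -0.77 on its brightest probe set but by 0.21 pooled on another, and its call was lost with probe sets averaged (limma adjusted p = 0.751). In glycolysis and hypoxia, 4 of 27 (14.8%) were called lower and none higher, NDRG1 at -0.62 and -0.28 among them; the count was 2 without shFOXO33 replicate 2 or shFOXO707 replicate 1 or 2. In oxidative phosphorylation, 6 of 31 (19.35%) were called higher and none lower, all under 0.6 in size, and 1 to 6 were called higher with each array left out in turn, with 1 without shFOXO707 replicate 1 and 3 without shFOXO33 replicate 1. In the matrix and adhesion list, 6 of 34 (17.65%) were called lower and 4 (11.8%) higher, with TIMP2, a metalloproteinase inhibitor, at -0.74 and -0.40 and TNC, tenascin C, at 0.78 and 0.69; the count higher was 2 without shFOXO33 replicate 1 or 2. None of 26 ribosomal protein genes and none of 7 genes of the small RNA machinery was called; TARBP2 of the latter changed by -0.20 and -0.25. Among markers of other cell types, the epithelial EPCAM (0.32 and 0.56) was called higher and KRT8 (-0.32 and -0.68) lower, and the neural TUBB3 changed by -0.20 and -0.16. The EPCAM call was lost without shFOXO33 replicate 1 or 2 or scrambled replicate 1, 3 or 4 (limma adjusted p = 0.191, 0.0981, 0.0921, 0.0749 and 0.0802), and the TUBB3 call without shFOXO33 replicate 2 or shFOXO707 replicate 2 (0.0552 and 0.402). The summed epithelial markers read 5665 to 5931 in scrambled cells, 6284 to 6589 with shFOXO33 and 3968 to 4017 with shFOXO707, so the hairpins lay on opposite sides.

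**Figure D4:**
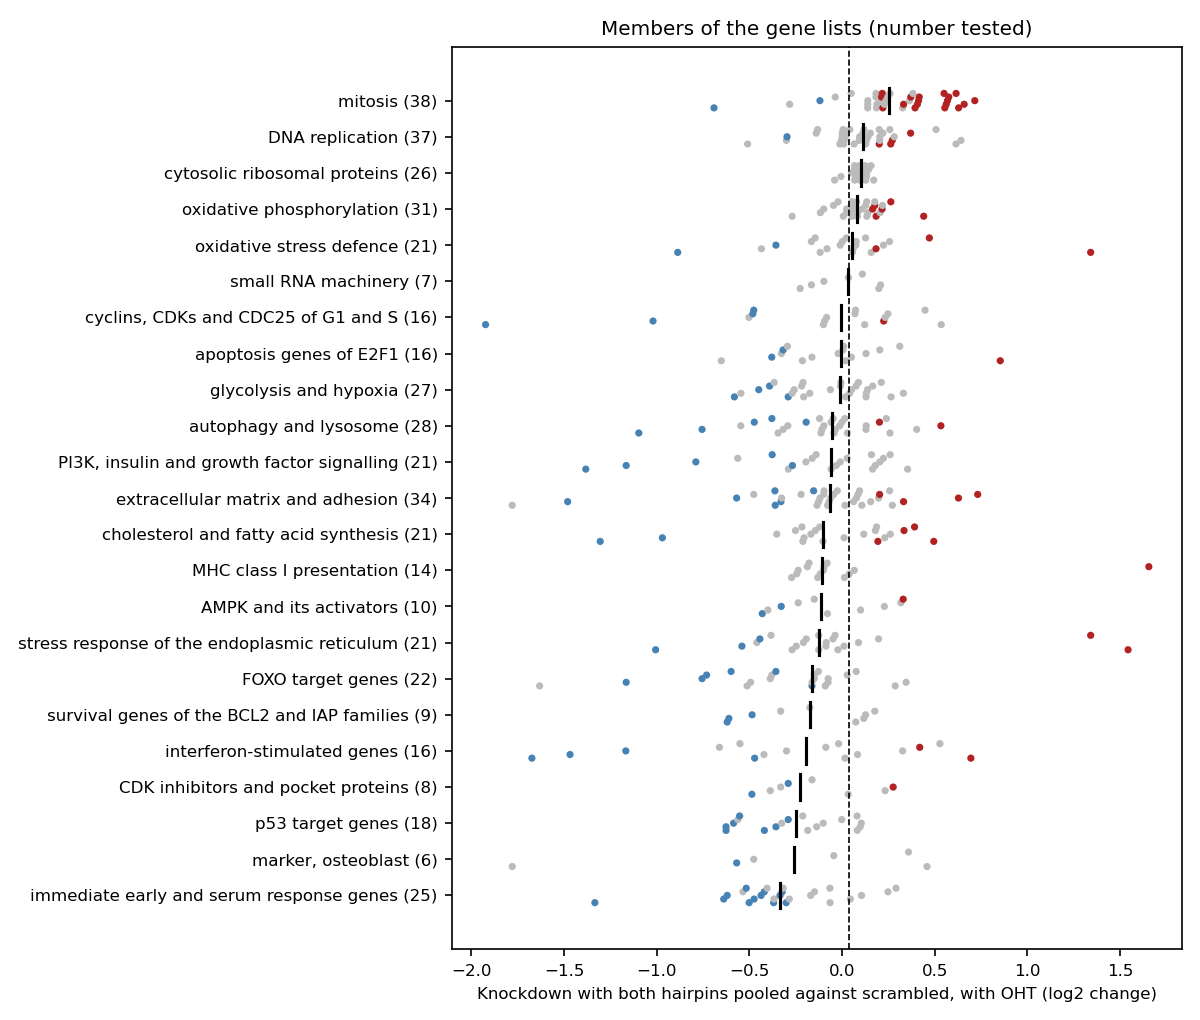
Log2 change with the hairpins pooled, with OHT, of every tested member of each gene list that had at least 6 tested members. Red and blue points were called higher and lower with both hairpins, and grey points were not. The black bar is the list's median and the dashed line the median of all 7720 genes, 0.04. Mitosis lies to the right at 0.25. The immediate early and serum response list lies to the left at -0.33, and the p53 list at -0.25.

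Many genes differed between the hairpins, among them 232 of the 880 genes higher with both and 229 of the 509 lower with both. With shFOXO707 against shFOXO33 under OHT, 1706 genes (22.1%) were higher and 1655 (21.4%) lower by limma. SPARC, a secreted matrix protein, read 8955, 8847, 9085 and 8321 in scrambled cells, 777 and 832 with shFOXO33, and 8459 and 7608 with shFOXO707. It changed by -3.43 ± 0.05 with shFOXO33 and -0.13 ± 0.05 with shFOXO707. CAV1, the coat protein of caveolae, read 2622, 2597, 2565 and 2630 in scrambled cells, 3266 and 3363 with shFOXO33, and 206 and 191 with shFOXO707. It changed by 0.35 ± 0.07 and -3.61 ± 0.07, so the changes had opposite signs. AXL, a receptor tyrosine kinase, read 4857, 4524, 4867 and 4849 in scrambled cells, 4846 and 4724 with shFOXO33, and 520 and 490 with shFOXO707. Those AXL signals are from its brightest probe set. The other AXL probe set changed by only -0.02 and -0.20, a hairpin difference of -0.18 that was not called (limma adjusted p = 0.2945). Other genes lower mainly with shFOXO33 were IGFBP5, which binds insulin-like growth factors (-2.42 and 0.70), RBX1, a subunit of cullin ubiquitin ligases (-2.84 and 0.07), IARS2, DSE and PSAP. Those lower mainly with shFOXO707 were PCLO (0.40 and -2.69), R3HDM1, MAP4 and ARPC1B, a subunit of the actin-nucleating Arp2/3 complex (-0.12 and -2.80). The ACTB 3' to 5' ratio was also higher with shFOXO707 (mean 1.996) than with shFOXO33 (1.61) or in scrambled cells (1.65), and its part in these differences was not tested.

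The same knockdown was also measured without OHT, on 1 array of each hairpin and 4 other scrambled arrays, so that these values share no array with the comparison above. Without OHT, FOXO3 read 138 with shFOXO33 and 274 with shFOXO707, and FOXO1 read 49.2 and 39.2. Their pooled changes were -1.14 and -0.99 (limma adjusted p = 0.122 and 0.00838 in the fit over all probe sets), so the fall of FOXO3 was not called there. There limma called 374 genes higher (4.84%) and 229 lower (2.97%) with the hairpins pooled. Of the 880 genes higher with both hairpins under OHT, 799 (90.8%) had a change above 0 without OHT, where 52.9% of all genes did, and 233 were called higher there and none lower. Of the 509 lower genes, 439 (86.3%) had a change below 0, where 47.1% of all genes did, and 145 were called lower and 10 higher. The median pooled change of the 880 was 0.43 with OHT and 0.23 without, and that of the 509 was -0.47 with OHT and -0.31 without. The 12 genes with the greatest rise were all called higher without OHT as well, for example TAPBP at 1.93 and DYNLRB1 at 2.01. IFI6 (-1.53), AHNAK2 (-1.68), SCD (-1.32) and ISG15 (-1.12) were called lower without OHT too, while CEMIP read only 2.24 to 28.4 on the 6 arrays without OHT, too dim for a fall to be seen.

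A test of whether the knockdown change itself differed between OHT and no OHT called 27 genes (0.350%), of which 21 were also called with both hairpins. Its fit pooled the hairpins and counted arrays of 1 hairpin as separate replicates, so this count can be too large. It was not run with the groups of virus and treatment as a random block. In 15 of the 21 the change with OHT lay below that without, and in 6 above. TRIB1 read 1930, 1872, 1830 and 1816 in scrambled cells with OHT and 1665, 1691, 1668 and 1625 with knockdown, but 483, 495, 457 and 524 without OHT against 830 and 858 with knockdown. Its knockdown change was -0.16 with OHT and 0.77 without, a difference of -0.93 (limma adjusted p = 0.000665). Knockdown cells thus read higher than scrambled cells without OHT and lower than them with it. EGR1 (-0.52 with OHT and 0.42 without; difference -0.94, adjusted p = 0.0296), CDKN1C (-0.49 and 0.22; -0.71, 0.0296), FGF9, a fibroblast growth factor (-0.46 and 0.49; -0.94, 0.0181), and PTCH1, the hedgehog receptor (-0.36 and 0.52; -0.88, 0.0296), had the same signs. OHT raised these 5 genes in scrambled cells, by 1.89 for TRIB1, 1.09 for EGR1, 2.17 for CDKN1C, 2.65 for FGF9 and 1.59 for PTCH1, and those values share the scrambled arrays with OHT. The 6 with a higher change under OHT were DYNLRB1 (difference 1.32, limma adjusted p = 0.00398), KIF18B, CENPE, NCAPH, NOTCH2 and VEZF1. In scrambled cells OHT changed these by -1.89, -0.09, -1.89, -1.21, -1.52 and -1.45 in that order. These values also share the scrambled arrays with OHT. CENPE read 1189, 1174, 1130 and 1094 in scrambled cells without OHT and 1130 and 1111 with knockdown, a change of -0.03, against 0.72 with OHT. KIF18B, a mitotic kinesin, changed by -0.01 without OHT and 0.76 with it, and NCAPH, a condensin subunit, by 0.13 and 0.87. Of the mitosis list, none was called higher without OHT and 1 was called lower, with a median of -0.08, where the list stood at 0.25 with OHT. The immediate early and serum response list had a median of 0.06 without OHT (2 called each way) against -0.33 with it. The FOXO targets had -0.29 without OHT against -0.16 with it, and the p53 targets -0.46 against -0.25. The difference was tested gene by gene only, and the comparison without OHT rests on 1 array of each hairpin.

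**Figure D5:**
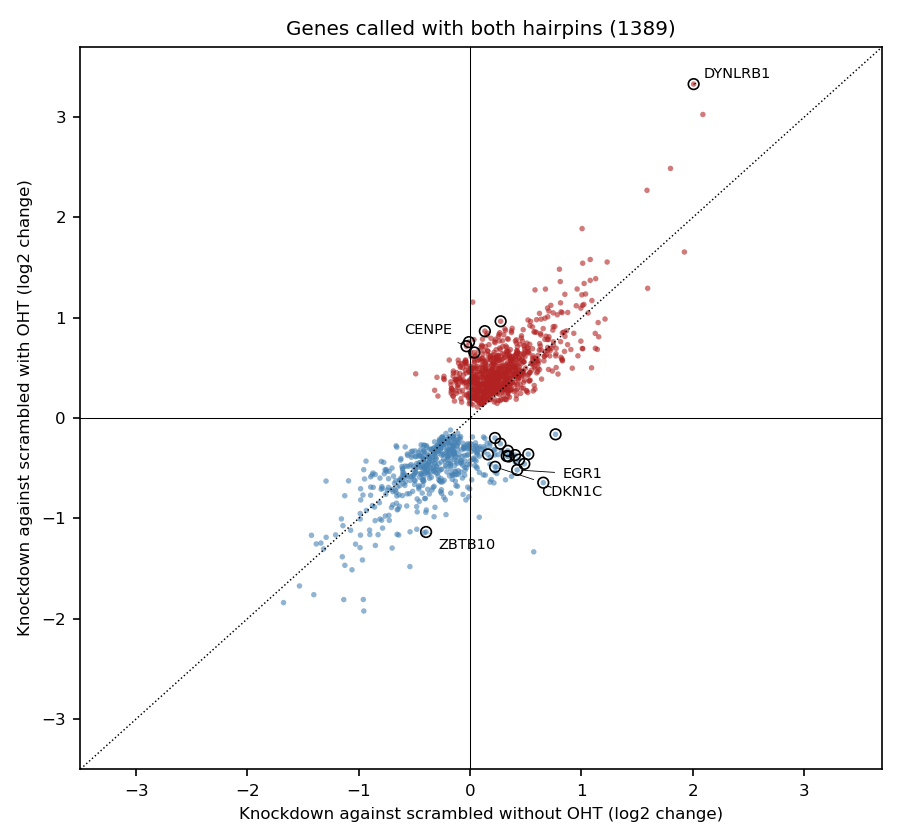
Pooled log2 knockdown change without OHT (horizontal axis) and with OHT (vertical axis) for the 1389 genes called with both hairpins under OHT, with red for higher and blue for lower. Circles mark the 21 whose change differed between the treatments; CENPE and DYNLRB1 lie above the dotted line of equal change, and EGR1, CDKN1C and ZBTB10 below it.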

How the data were processed

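RNA from U2OS ER-E2F1 cells was labelled and hybridised to 14 Affymetrix arrays, 1 per sample, and grouped by sample title. The authors deposited 1 linear intensity per probe set and array, computed by MAS5 as the submitters' processing notes state; no version of that tool is named in the sources used here. These deposited values had a mean of 500 on every array after the lowest and highest 2% were left out. Precision is limited by the number of arrays.

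The probe annotation named 1 gene for 19064 probe sets, several for 1043 and none for 2108 (62 array controls aside). Only the first kind entered the fits of the 7720 genes. A separate limma fit covered all 22215 probe sets that were not controls, with no filter on low signals. It gave the values of E2F1, FOXO4, the shared FOXO3 probe sets and the other probe sets of named genes. Its p-values were adjusted over those 22215. Symbols were updated through Entrez identifiers with a RefSeq table (GRCh38.p14) for 19052. Signals were taken as log2(signal + 16), and probe sets with a mean over the 14 arrays above the 40th percentile (6.57, a signal of 79.1) were kept, which left 11438 probe sets and 7720 genes, each read from its brightest probe set. limma 3.58.1 in R 4.3.3 (lmFit, eBayes with a variance trend, two-sided, Benjamini-Hochberg) was fitted over 6 groups of virus and treatment for each hairpin and for the difference between hairpins, and over 4 groups for the pooled hairpins, the comparison without OHT and the difference between treatments. Interferon response elements were searched for after values had been seen. The code was tested on simulated data.

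Replicate numbers did not pair the arrays: deviations of same-numbered arrays from their group means correlated at r of -0.06 to 0.05. Alternatives covered the added constant, the filter, scaling, probe set choice, the variance trend and the arrays fitted. They also covered a replicate block, a random block for each group of virus and treatment, and leaving out each array with OHT.

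Named genes were the 12 each way with the largest smaller-of-both change among called genes whose groups did not overlap, up to 4 called members of each of 26 lists (and up to 2 others by pooled adjusted p where fewer than 2 were called), the 6 each way that differed most between hairpins, and every probe set of the FOXO genes and E2F1; other list members are given as examples and were chosen with their values known. The members and lists were chosen with earlier results of these data known.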

Additional observations from a re-analysis of the deposited data

Results flagged for a closer look

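Each of the 114 named genes was looked at in the scrambled arrays with OHT and in the knockdown arrays with OHT. Among them, 11 had 1 array far from the other 3 of its group, measured as the gap to the nearest array over the range of the group. Chance alone gives this in about 1 in 20 groups, so 11 is near the number that chance gives. The knockdown group mixes both hairpins, so that rate need not hold there. In the scrambled arrays with OHT these were ALDOC (0.896), AXL (0.949), BCL2L11 (0.907), GINS2 (0.859), PHLDA3 (0.847), POLA1 (0.852), PREPL (0.852) and RPS6 (0.892). In the 4 knockdown arrays with OHT they were CEMIP (0.894), NR4A1 (0.868) and SESN1 (0.947). ALDOC, for example, read 99.2 on 1 scrambled array against 113 to 115 on the others, and BCL2L11 read 584 against 520 to 526.

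The hairpins differed from each other under OHT, by shFOXO707 minus shFOXO33 on the log2 scale, by 3.29 for SPARC, 3.12 for IGFBP5, 2.90 for RBX1, 2.75 for IARS2, 2.58 for DSE and 2.56 for PSAP. They differed by -3.96 for CAV1, -3.20 for AXL (-0.18 on its other probe set), -3.09 for PCLO, -2.92 for R3HDM1, -2.80 for MAP4 and -2.68 for ARPC1B. Each of these 12 had a limma adjusted p for the difference of at most 3.38e-11.

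The knockdown change with OHT differed from that without OHT by -0.71 for CDKN1C, 0.75 for CENPE, 1.32 for DYNLRB1, -0.94 for EGR1 and -0.74 for ZBTB10. The limma adjusted p were 0.0296, 0.0296, 0.00398, 0.0296 and 0.0449, from a fit that counted arrays of 1 hairpin as separate replicates.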

How the results depend on the processing

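The counts called with both hairpins and those of the difference between hairpins stayed within 1.5 times their reported values under every alternative run. With each array with OHT left out in turn, the genes called with both hairpins numbered 633 to 831 higher and 386 to 475 lower, the pooled calls 866 to 1155 higher and 429 to 689 lower, and the hairpin differences 1393 to 1692 higher and 1283 to 1652 lower. Of the 1389 genes called with both hairpins, 70.8% to 99.1% kept their call and none changed sign under the alternatives. The pooled calls, 1138 higher and 618 lower, became 13 and 6 with the replicate block. They became 34 and 23 with each group of virus and treatment as a random block. With the mean of both hairpins in 6 groups they became 2039 and 1601. The lower calls became 1249 with only the shFOXO33 arrays, an alternative chosen after the data were seen (the cause was not tested). With the replicate block, 719 higher and 443 lower were called with both hairpins; the numbers only name arrays, and among genes named in the text the calls of ALDOC, EPCAM, IFI44, PPP1R13B, PRIM1 and PRKAG1 were lost (limma adjusted p = 0.216, 0.149, 0.0818, 0.0579, 0.0725 and 0.132). After median centring 54.8% of the genes called with both hairpins were higher, against 63.4% as reported. Of 114 named genes, 2 changed sign in an alternative: CD3D, never called, ran from -0.022 without shFOXO707 replicate 1 to 0.23 without replicate 2 of that hairpin, and NEFL reversed to 0.16 with probe sets averaged. With 2 arrays per hairpin, a change near the array spread cannot be resolved, and dim probe sets give understated changes.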
